A study of Mus musculus with 31 samples.

Results

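Macrophages of control mice treated with the cytokine IL4 were compared directly with macrophages of the same mice treated with rosiglitazone, a synthetic ligand of the nuclear receptor PPARγ. The comparison took 8 of the 31 RNA sequencing libraries of the series, 4 for each treatment, chosen by their labels alone. The cells were thioglycollate-elicited peritoneal macrophages of C57BL/6 mice aged 8.5 weeks. They were collected 4 days after an injection of 3% thioglycollate, kept overnight in culture and then treated for 24 h with 20 ng/mL IL4 or with 1 uM rosiglitazone. Rosiglitazone was given in DMSO and IL4 was not, so the vehicle is part of the direct comparison. The other 8 control libraries, 4 of untreated cells and 4 of DMSO-treated cells, gave the reference level of each treatment and entered the same fit. A time of 24 h is recorded for DMSO and none for untreated cells. Time in culture may therefore be part of any difference from untreated cells, which was not tested. The series also holds 15 libraries whose mice are labelled as lacking PPARγ in macrophages (KO), of which the 4 with IL4 and the 3 with rosiglitazone are used at the end. The labels name neither the allele nor the promoter of the knockout.

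IL4 binds a receptor on macrophages whose kinases phosphorylate STAT6, a transcription factor that switches on the genes of alternative activation, among them arginase, chitinase-like and resistin-like proteins and the mannose receptor. PPARγ pairs with RXR and is activated by fatty acids and by drugs such as rosiglitazone. It controls genes of fatty acid uptake, lipid droplets and fatty acid oxidation. In macrophages the pathways meet, since IL4 is known to raise Pparg, the gene of the receptor that rosiglitazone binds.

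Values are FPKM, fragments scaled by gene length and sequencing depth, deposited by the authors and rescaled here so that the typical gene has the same level in every library. The deposited values summed to between 244591 and 288889 in 7 of the 8 libraries and to 151837 in the IL4 library of mouse 2, where the ribosomal gene Rn45s was listed at 0. No read total is given in the sources used here, but the steps between low values placed the depths of the 8 libraries between 0.531 and 1.0 times that of the IL4 library of mouse 1. These are the depths by which FPKM was scaled, not the reads assigned to genes. The IL4 library of mouse 2 was placed at 0.751. It had 8601 genes at 1 FPKM or more as deposited, beside 9498 to 9622 in the other libraries compared. Summed over 14 macrophage identity genes, the level was 1889 to 1944 with rosiglitazone and 2011 to 2133 with IL4. Markers of T and NK cells, mast cells and erythroid cells summed to at most 1.21 in any of the 8 libraries. Libraries with the same number were taken as the same mouse, by the series' design. The Y-linked gene Ddx3y stood at 16.3 to 19.8 in the 4 libraries numbered 1 and at 0 in the other 12. It sets number 1 apart but does not tell the other numbers from each other. In their deviations from treatment means, 13 of the 16 control libraries correlated best with their own number. The exceptions all carried number 2.

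IL4 and rosiglitazone set a large part of the measured genes to different levels, most of them by little. Of 9725 genes tested, 3916 (40.3%) differed at an adjusted p under 0.05, 2057 (21.2%) higher with IL4 and 1859 (19.1%) higher with rosiglitazone (limma on log2(rescaled FPKM + 1), mouse as a block, Benjamini-Hochberg adjustment). These genes are called different below. The median size of a called difference was 0.334 on the log2 scale. In 2699 of the 3916 called genes the IL4 and rosiglitazone libraries did not overlap. Lack of overlap was also required of the genes named for the largest differences, so for them it is no separate finding. A 2-fold difference or more was seen in 231 genes (2.38%), of which 183 (1.88%) were higher with IL4 and 48 (0.494%) were higher with rosiglitazone. For 7593 genes (78.1%) the 95% confidence interval of the difference lay within 0.5 on either side of 0. Against their own reference cells, IL4 changed 3770 genes (38.8%, against untreated) and rosiglitazone 1312 (13.5%, against DMSO). DMSO against untreated cells gave 439 calls (4.51%). With the vehicle taken out, as the IL4 response over untreated cells minus the rosiglitazone response over DMSO, 2280 genes (23.4%) were called. Of the 3916 direct calls, 2052 were also called, with the same sign, with the vehicle taken out, and 1864 were not. Of the 231 genes with a 2-fold direct difference, 230 were. Both contrasts use the same IL4 and rosiglitazone libraries, so this overlap is no independent finding. Rescaling set the balance of small differences: as deposited, the median of all genes lay at -0.133, and 452 genes were called higher with IL4 against 904 with rosiglitazone. Upper-quartile scaling called 1656 against 2480.

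**Figure D1:**
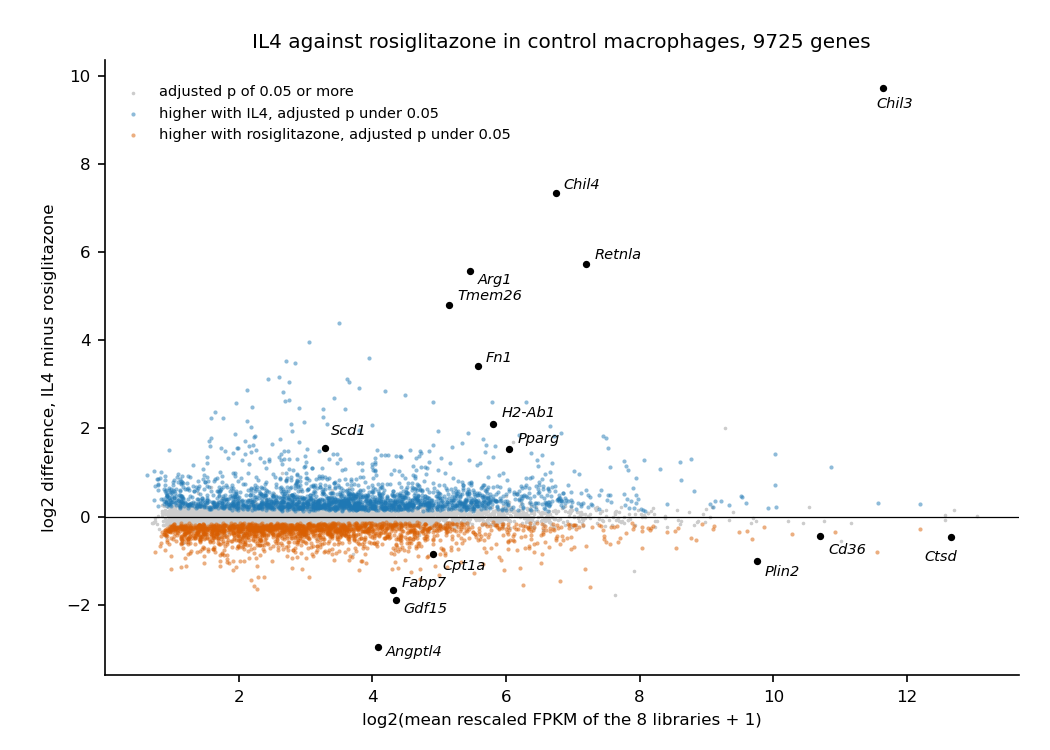
Each point is 1 of 9725 genes, with its mean level in the 8 libraries (log2 of rescaled FPKM + 1) on the x axis and its log2 difference, IL4 minus rosiglitazone, on the y axis. Blue and orange points passed an adjusted p of 0.05, and the named genes are drawn in black. Chil3 lies highest, at 9.73, and Angptl4 lies lowest, at -2.96.

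The widest gaps belonged to the secreted proteins and enzymes of alternative activation, which stood at or near their untreated level with rosiglitazone. Chil3 (Ym1), a chitinase-like lectin, had 5400.5, 5659, 7793 and 6595 FPKM in the IL4 libraries of mice 1 to 4 and 3.30, 6.99, 8.50 and 8.37 in their rosiglitazone libraries. No IL4 library came near any rosiglitazone library, and the means differed 937-fold (log2 difference 9.73 ± 0.11 SE, limma adjusted p = 1.52e-17). Its close relative Chil4 followed at 212 ± 29.7 against 0.309 ± 0.132 FPKM (mean ± SD, n = 4), but how reads were split between these similar genes is not stated. Arg1, arginase, which turns arginine into ornithine and urea, had 77.5, 60.5, 61.1 and 141 FPKM with IL4. With rosiglitazone it had 0.622, 0.539, 0.237 and 1.72, a log2 difference of 5.57 ± 0.13 (limma adjusted p = 1.19e-13). Retnla, a secreted resistin-like protein, had 168, 157, 569 and 258 FPKM with IL4 and 1.74, 2.42, 8.34 and 4.56 with rosiglitazone, and mouse 3 was the highest with either treatment. The log2 difference of Retnla was 5.74 ± 0.11, and 5.67 without mouse 3.

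Receptors and chemokines of the same programme also separated completely. Mrc1, the mannose receptor, stood at 114, 118, 127 and 119.6 FPKM with IL4 and at 43.6, 41.2, 46.0 and 43.5 with rosiglitazone, a 2.74-fold difference of means (log2 difference 1.44 ± 0.06, limma adjusted p = 7.99e-11). Mgl2, a galactose-binding lectin, had 11.0 ± 3.23 against 0.412 ± 0.228 FPKM. The chemokines Ccl22 and Ccl17, which attract T cells through CCR4, were almost absent with rosiglitazone. Ccl22 had 9.56, 12.8, 2.51 and 15.3 FPKM with IL4 and 0.0676, 0.0600, 0 and 0.117 with rosiglitazone. Ccl17 had 4.39, 7.57, 2.42 and 8.53 FPKM with IL4 and 0, 0, 0.0851 and 0.0688 with rosiglitazone. In both genes mouse 3 was the lowest of the IL4 libraries, the reverse of Retnla. Pdcd1lg2, the inhibitory ligand PD-L2, had 7.26, 8.26, 10.8 and 8.47 FPKM with IL4 and at most 0.179 with rosiglitazone, whereas Cd274, the related PD-L1, differed by only 0.25 ± 0.06 on the log2 scale (limma adjusted p = 0.00381) and was not called with the vehicle taken out (0.12). Of 24 tested genes of a list of IL4 response markers, 21 were higher with IL4, 2 with rosiglitazone (Il1rn and Tgm2), and 19 differed by 2-fold or more. The list's median was 2.20, beside -8.42e-05 over all genes tested. Such genes define the IL4 response, so the direction of this list is no independent finding.

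**Figure D2:**
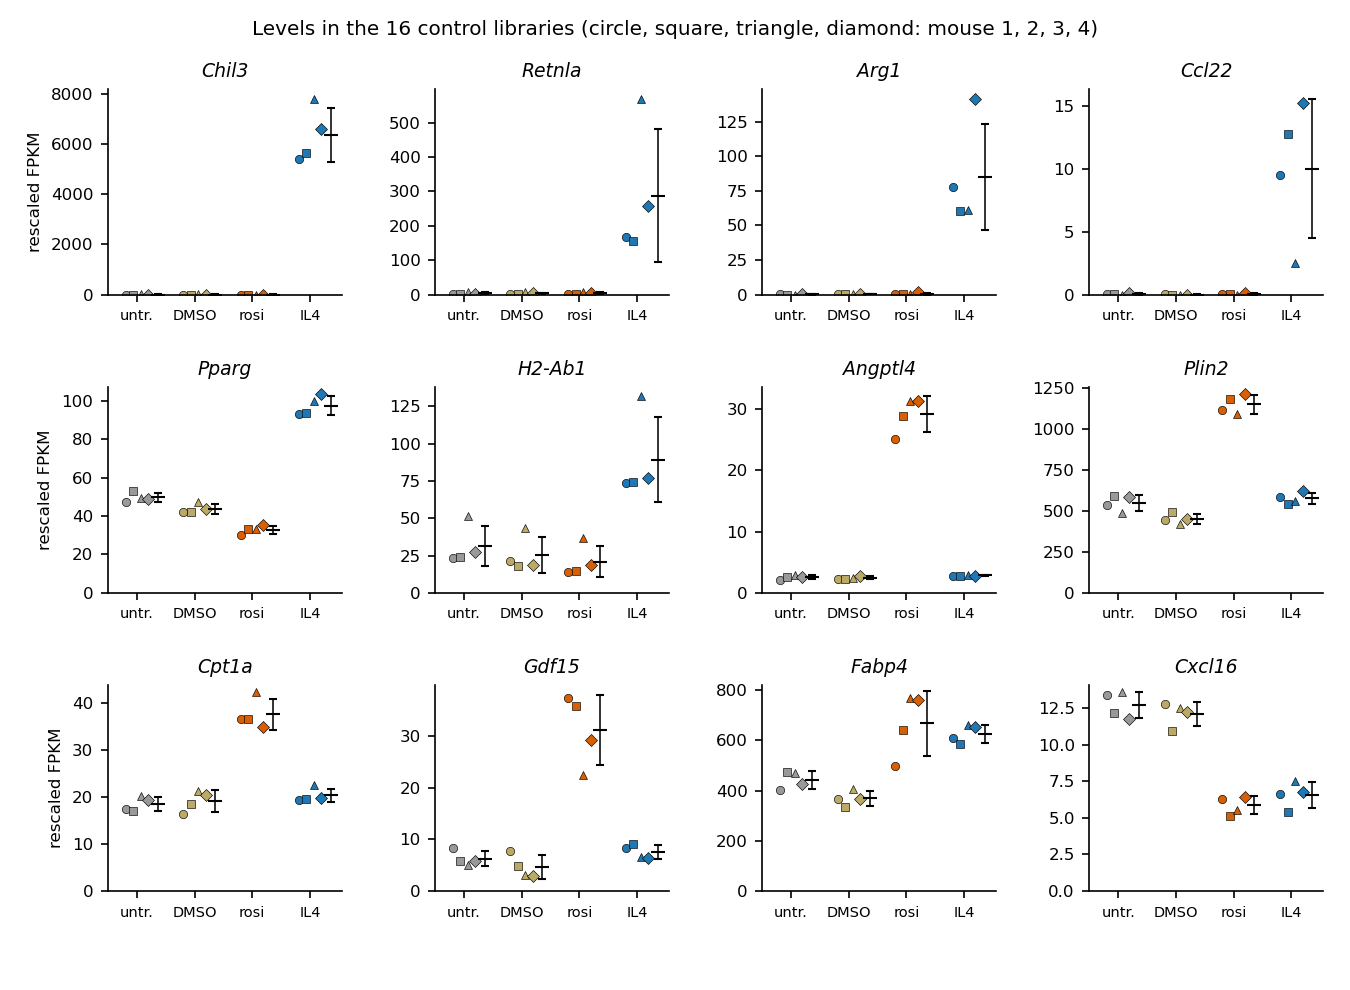
Rescaled FPKM (y axis, from 0) of 12 genes in the 16 control libraries, by treatment on the x axis (untr. for untreated, rosi for rosiglitazone); each symbol shape is 1 mouse, and the bars give mean ± SD of 4 libraries. Chil3, Retnla, Arg1 and Ccl22 leave the axis only with IL4, Angptl4 and Gdf15 are high only with rosiglitazone, and Cxcl16 is lower with both treatments than in either reference.

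Promoters of genes with a 2-fold difference were searched for the STAT6 site, the letters TTC, any 4 bases, then GAA, which reads the same on both strands. The promoter table of RefSeq (build GRCm38.p6, 250 bases before to 50 after each start) matched 7460 of the 9725 genes. The letters stood in 17 of 180 promoters (9.44%) of the genes 2-fold higher with IL4 and in 1 of 51 (1.96%) of those 2-fold higher with rosiglitazone. Among promoters of all genes tested the share was 5.17%, and 6.95% among all 32851 promoters listed there. These shares are descriptions without a test, and a match is not a bound site. The 250 bases upstream of the start are shown for 4 of the genes described here because they hold these letters, and capitals mark the match. They lie at chr16:48842359-48842608 (Retnla), chr10:68723496-68723745 (Tmem26), chr19:29410669-29410918 (Pdcd1lg2) and chr8:94810203-94810452 (Ccl17), all on the plus strand. The matches begin 145 bases before the start in Retnla, 227 and 41 in Tmem26, 82 in Pdcd1lg2 and 154 in Ccl17.
Retnla: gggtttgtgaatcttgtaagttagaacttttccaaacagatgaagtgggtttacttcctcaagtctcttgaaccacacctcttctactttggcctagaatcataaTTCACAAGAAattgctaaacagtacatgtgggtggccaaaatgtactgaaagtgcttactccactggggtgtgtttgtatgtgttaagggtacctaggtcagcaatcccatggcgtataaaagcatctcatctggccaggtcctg
Tmem26: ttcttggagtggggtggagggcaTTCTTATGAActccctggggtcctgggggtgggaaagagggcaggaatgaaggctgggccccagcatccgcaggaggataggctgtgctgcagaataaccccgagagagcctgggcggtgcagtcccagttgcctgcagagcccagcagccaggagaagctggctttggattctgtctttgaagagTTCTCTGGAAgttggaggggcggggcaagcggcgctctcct
Pdcd1lg2: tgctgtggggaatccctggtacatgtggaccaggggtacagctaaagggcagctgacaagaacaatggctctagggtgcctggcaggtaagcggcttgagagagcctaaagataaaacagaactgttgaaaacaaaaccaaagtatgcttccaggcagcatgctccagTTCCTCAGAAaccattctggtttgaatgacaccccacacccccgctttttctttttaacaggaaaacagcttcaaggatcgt
Ccl17: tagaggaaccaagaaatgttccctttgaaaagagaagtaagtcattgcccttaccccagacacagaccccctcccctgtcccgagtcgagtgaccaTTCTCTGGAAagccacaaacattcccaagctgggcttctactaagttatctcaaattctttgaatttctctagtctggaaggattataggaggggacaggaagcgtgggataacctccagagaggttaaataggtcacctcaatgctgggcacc

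Further genes at the IL4 end of the ranking lie outside the classical markers. Tmem26, a membrane protein, had 61.0, 69.5, 69.2 and 70.3 FPKM with IL4 and 1.38, 1.71, 1.22 and 1.47 with rosiglitazone (log2 difference 4.81 ± 0.06, limma adjusted p = 1.05e-16). Fn1, the matrix protein fibronectin, had 85.9 ± 12.7 against 7.52 ± 3.24 FPKM. Ocstamp, which is needed for the fusion of osteoclasts and foreign-body giant cells, had 10.8, 13.0, 7.85 and 12.8 FPKM with IL4 and at most 0.0447 with rosiglitazone. Ier3, an immediate early gene, and Slc36a2, a transporter of small amino acids, differed by 3.60 ± 0.15 and 3.49 ± 0.08 on the log2 scale. Batf3, a transcription factor known from dendritic cells, had 21.1 ± 1.21 against 1.53 ± 0.125 FPKM. It was the only 1 of 10 dendritic cell markers to pass the filter on low values. Rnase2a, an eosinophil-type ribonuclease, was listed at 0 in all 4 rosiglitazone libraries and at 16.3, 14.0, 27.5 and 24.6 FPKM with IL4. Its relatives Ear2 and Ear1 were higher with IL4 by 1.45 ± 0.18 and 0.81 ± 0.09, but both also rose with rosiglitazone over DMSO, by 3.36 ± 0.18 and 1.15 ± 0.09. These ribonucleases share near-identical sequences, so their separate values are uncertain. Summed eosinophil markers reached 28.8 to 57.5 FPKM with IL4 and 15.1 to 23.2 with rosiglitazone, with Ear2 as the main part; Epx, Prg2, Ccr3 and Il5ra, which define eosinophils, were below the filter. The part of eosinophils in these values was not tested, and in bulk RNA fewer cells of a type and less RNA per cell cannot be told apart.

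Tdrd7 was listed at 14.4, 14.0, 15.0 and 15.1 FPKM with IL4 and at 0 in all 4 rosiglitazone libraries. It was also at 0 in 4 of the 8 reference libraries, so the zeros may be failed estimates and no fold is given. Adipoq, the fat cell hormone adiponectin, was listed at 3.25 to 5.45 FPKM in the 4 IL4 libraries and at 0 in the other 12 control libraries, rosiglitazone included. Adipoq is a known PPARγ target in fat cells and was singled out after its values were seen.

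Among genes of IL4 signalling the widest differences were in its feedback inhibitors. Cish, a SOCS family inhibitor that STAT factors induce, had 6.53, 6.73, 6.26 and 7.23 FPKM with IL4 and 0.0425, 0.0335, 0.0405 and 0.0491 with rosiglitazone (log2 difference 2.88 ± 0.06, limma adjusted p = 3.34e-14). Socs1 and Socs3, of the same family, were higher with IL4 by 1.72 ± 0.08 and 0.70 ± 0.07, and the kinase Jak2 by 1.06 ± 0.06. Stat6 itself was slightly lower with IL4, by -0.21 ± 0.06, a call that was lost without mouse 2 or mouse 3 (-0.20 and -0.21) and with the vehicle taken out (-0.11). Of 16 tested genes of receptor signalling, 7 were higher with IL4 and 4 with rosiglitazone, and as deposited 4 and 0. In arginine handling, the arginine transporter Slc7a2 stood at 21.5 ± 2.68 FPKM with IL4 and 1.70 ± 0.165 with rosiglitazone (log2 difference 3.06 ± 0.09). Sat1, which acetylates polyamines, was higher with IL4 by 0.61 ± 0.06. Glul, glutamine synthetase, was higher with rosiglitazone, by -0.52 ± 0.04. In the arginine and polyamine list 7 of 12 tested genes were higher with IL4 and 1 with rosiglitazone, and as deposited 4 and 1.

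Pparg itself was moved in opposite directions. It had 93.0, 93.8, 99.7 and 103 FPKM in the IL4 libraries and 30.1, 33.2, 33.0 and 35.0 in the rosiglitazone libraries, with 49.6 ± 2.47 in untreated and 43.6 ± 2.43 in DMSO-treated cells (mean ± SD, n = 4). IL4 raised it over untreated cells by 0.96 ± 0.05 on the log2 scale (limma adjusted p = 2.39e-09), and rosiglitazone lowered it against DMSO by -0.40 ± 0.05 (limma adjusted p = 0.000123). The direct difference was 1.54 ± 0.05 (limma adjusted p = 1.21e-11). The IL4 mean was 2.97 times the rosiglitazone mean. The coactivator Ppargc1b was higher with IL4 by 0.89 ± 0.08, at 1.74 ± 0.334 against 0.467 ± 0.0585 FPKM. Rxrb, a partner receptor, and the corepressor Nrip1 were higher with rosiglitazone, by -0.39 ± 0.06 and -0.29 ± 0.08, but the call of Nrip1 was lost without mouse 1, 3 or 4 (-0.25, -0.27 and -0.28) and with the vehicle taken out (-0.17). Ppard, the related receptor PPARδ, did not pass (-0.06 ± 0.08, 95% interval -0.22 to 0.10, limma adjusted p = 0.534). Of 11 tested receptors and coregulators, 2 were called higher with IL4 and 3 with rosiglitazone, near the share of all genes.

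Angptl4 was the widest on the rosiglitazone side among the genes the naming rule takes, and some genes of lipid droplets and lipolysis were also higher with rosiglitazone. Angptl4, a secreted inhibitor of lipoprotein lipase and a classical PPAR target, had 25.1, 28.8, 31.3 and 31.3 FPKM with rosiglitazone and 2.82, 2.81, 2.96 and 2.83 with IL4. In untreated cells it stood at 2.56 ± 0.287, and the rosiglitazone mean was 10.2 times the IL4 mean (log2 difference -2.96 ± 0.06, limma adjusted p = 3.93e-14). Plin2, the protein that coats lipid droplets, had 1111, 1181, 1091 and 1212 FPKM with rosiglitazone and 581, 541, 558 and 620.4 with IL4, a 2.00-fold difference of means (limma adjusted p = 6.1e-09). Hilpda, a droplet protein that restrains lipolysis, had 32.8 ± 7.52 against 12.9 ± 2.38 FPKM. It moved up with rosiglitazone over DMSO (0.77 ± 0.09) and down with IL4 against untreated cells (-0.62 ± 0.09). Of the enzymes that release fatty acids from triglycerides, Pnpla2, which removes the first fatty acid, differed by -0.85 ± 0.06, and Mgll, which removes the last, by -0.67 ± 0.07. The median of the 7 tested lipolysis genes was only -0.13, and -0.016 with the vehicle taken out. Of 5 tested droplet genes 2 were higher with rosiglitazone and none (0) with IL4, so that the shares called in this list and in the next were near the 40.3% of all genes. Of 7 tested lipolysis genes 3 were higher with rosiglitazone (Pnpla2, Mgll and Pnpla6) and none with IL4, but the call of Pnpla6 (-0.18 ± 0.07) was lost without mouse 1, 2 or 3 (-0.15, -0.17 and -0.20), and its sign turned with the vehicle taken out (0.07).

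Some genes of fatty acid uptake and binding were higher with rosiglitazone, and both treatments raised Cd36. Cd36, the fatty acid and oxidised LDL receptor, had 1621, 1956, 2036 and 2079 FPKM with rosiglitazone and 1328, 1383, 1344 and 1556 with IL4, without overlap. The rises were 1.21 ± 0.07 over DMSO and 0.48 ± 0.07 over untreated cells, and the direct difference was -0.45 ± 0.07 (limma adjusted p = 9.29e-05). Acsl1, which couples fatty acids to coenzyme A, rose with rosiglitazone (0.50 ± 0.05) and stood at 10.4 ± 0.800 FPKM with IL4, beside 11.0 ± 0.401 in untreated cells. Fabp7, a further fatty acid binding protein, which entered here as a marker of resident macrophages, had 27.0, 26.2, 31.1 and 32.8 FPKM with rosiglitazone and 8.63, 7.80, 9.87 and 8.07 with IL4. It rose with the ligand (1.19 ± 0.12) and fell with the cytokine (-1.14 ± 0.12). Msr1, a scavenger receptor, was higher with IL4, by 0.36 ± 0.07, and both treatments lowered it, rosiglitazone by -0.47 ± 0.07 and IL4 by -0.32 ± 0.07, and it was not called with the vehicle taken out (0.15). Of 16 tested genes of uptake and binding, 6 were higher with rosiglitazone and 3 with IL4, and with the vehicle taken out 5 and 0. The share called was 56.25%, beside 40.3% of all genes, of which 19.1% were higher with rosiglitazone and 21.2% with IL4.

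Within mitochondrial fatty acid oxidation the widest difference was at the entry step. Cpt1a, which controls the entry of fatty acids into mitochondria, had 36.5, 36.5, 42.4 and 34.8 FPKM with rosiglitazone and 19.4, 19.5, 22.5 and 19.8 with IL4 (log2 difference -0.86 ± 0.06, limma adjusted p = 2.03e-08). Against untreated cells the IL4 value was 0.13 ± 0.06 (limma adjusted p = 0.0898). Acaa2, the last thiolase of the cycle, Ech1, an isomerase for unsaturated fatty acids, and Hadhb, of the trifunctional protein, rose with both treatments and more with the ligand. Their direct differences were -0.43 ± 0.07, -0.51 ± 0.10 and -0.25 ± 0.06, and that of Hadhb missed the threshold without mouse 3 (-0.22, limma adjusted p = 0.0508). The thioesterase Acot2 differed by -0.50 ± 0.10. The share called among 21 tested genes, 47.6%, was near the 40.3% of all genes. Of the 21 genes 8 were higher with rosiglitazone and 2 with IL4 (Acadm and Hadh, by 0.18 ± 0.06 and 0.20 ± 0.05), and 17 had an interval within 0.5 of 0. Neither of the 2 was called with the vehicle taken out (0.18 and 0.00), and Acadm was lost without any 1 mouse (0.16 to 0.20). In the peroxisome, Pex11a, which drives peroxisome division, was higher with rosiglitazone (3.41 ± 0.595 against 1.19 ± 0.153 FPKM), as was catalase, Cat, by -0.56 ± 0.05. Abcd2, a peroxisomal importer of long fatty acids, was higher with IL4, at 20.8 ± 2.44 against 10.3 ± 1.86 FPKM. The list of 16 tested peroxisomal genes had 4 higher on either side, and as deposited 1 with IL4 and 3 with rosiglitazone. Its share called, 50%, was also near that of all genes.

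**Figure D3:**
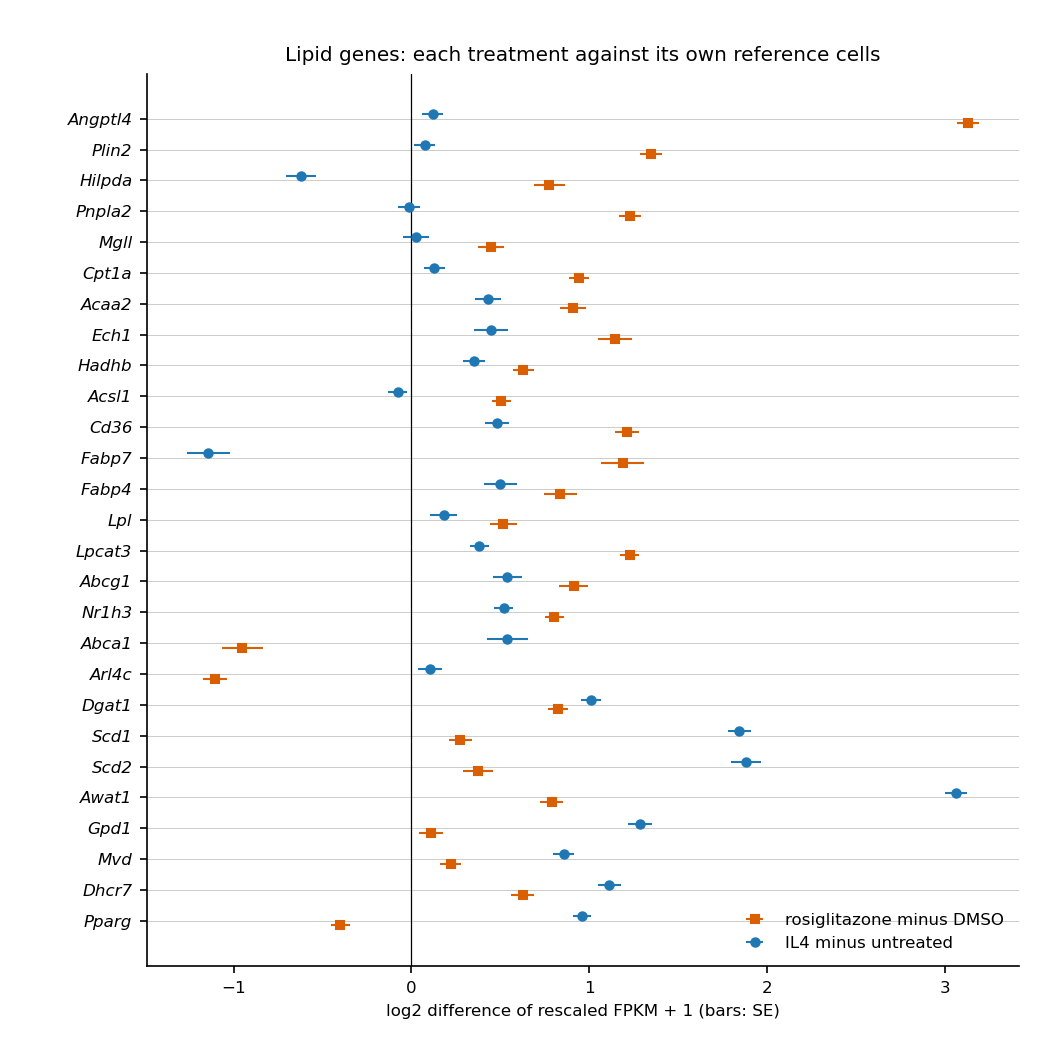
For 27 lipid genes the x axis gives the log2 difference (of rescaled FPKM + 1) of rosiglitazone minus DMSO (orange squares) and of IL4 minus untreated (blue circles), with bars for the SE, 4 libraries a group. The droplet and oxidation genes at the top lie further right with rosiglitazone, the desaturases, Awat1 and Gpd1 further right with IL4, and Abca1, Pparg and Fabp7 lie on opposite sides of 0.

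Cholesterol export genes, targets of the oxysterol receptor LXR, did not move as 1 group. Abca1, which loads cholesterol onto apolipoprotein A-I, had 19.6, 21.6, 23.3 and 19.6 FPKM with IL4 and 9.72, 8.22, 12.5 and 8.68 with rosiglitazone. IL4 raised it over untreated cells (0.54 ± 0.11), rosiglitazone lowered it against DMSO (-0.95 ± 0.11), and the direct difference was 1.04 ± 0.11 (limma adjusted p = 4.25e-06). Arl4c, a small GTPase, differed by 1.20 ± 0.07, with rosiglitazone below DMSO by -1.10 ± 0.07 and IL4 at 0.10 ± 0.07 against untreated cells. Abcg1, the exporter to HDL, went the other way, with 117, 113, 105 and 89.1 FPKM under rosiglitazone and 80.0, 91.3, 79.9 and 71.3 under IL4. The groups of Abcg1 overlapped in 1 library of each, and the difference was -0.39 ± 0.08 (limma adjusted p = 0.00142). Lpcat3, which puts polyunsaturated fatty acids into phospholipids, Mylip, which degrades the LDL receptor, and Smpdl3a, a phosphodiesterase, were higher with rosiglitazone by -0.72 ± 0.05, -0.71 ± 0.06 and -1.19 ± 0.08. Nr1h3, the gene of LXRα, rose with both, and the treatments differed by -0.14 ± 0.05 (limma adjusted p = 0.0439), a call that was lost without any 1 of the 4 mice (-0.17 to -0.12). Of 14 tested genes 4 were higher with IL4 and 7 with rosiglitazone (2 and 5 as deposited), and 4 had an interval within 0.5 of 0.

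Several genes of lipid synthesis were higher with IL4. Scd1 and Scd2, the desaturases that make monounsaturated fatty acids, had 13.5 ± 1.72 and 79.3 ± 7.47 FPKM with IL4 against 3.98 ± 0.830 and 30.5 ± 5.35 with rosiglitazone. Their log2 differences were 1.55 ± 0.06 (limma adjusted p = 7.62e-11) and 1.36 ± 0.08 (limma adjusted p = 8.7e-09). Awat1, an acyltransferase that makes wax esters in skin, had 18.7, 19.2, 14.2 and 18.3 FPKM with IL4 and 2.11, 2.10, 1.38 and 2.00 with rosiglitazone. Both treatments raised it, IL4 by 3.06 ± 0.06 and rosiglitazone by 0.79 ± 0.06. Gpd1, which supplies the glycerol backbone, had 2.44 ± 0.143 against 0.521 ± 0.0178 FPKM. Dgat1, the last enzyme of triglyceride synthesis, was raised nearly alike by both, by 1.01 ± 0.05 with IL4 and 0.82 ± 0.05 with rosiglitazone, with a direct difference of 0.17 ± 0.05 whose call was lost without mouse 2 or 3 (0.17 and 0.13) and with the vehicle taken out (0.19). Of 18 tested genes of fatty acid and triglyceride synthesis 9 were higher with IL4 and 1 with rosiglitazone (8 and 4 with upper-quartile scaling), and the median was 0.18. Cholesterol synthesis was higher with IL4 in 18 of 22 tested genes and with rosiglitazone in none (0), by a median of 0.33. Among them were Mvd (0.73 ± 0.06), Dhcr7 (0.71 ± 0.07), Nsdhl (0.52 ± 0.06) and Acat2 (0.46 ± 0.05). None of the 22 reached a 2-fold difference, 11 were called with the vehicle taken out, and 2 were called higher with IL4 in the values as deposited.

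Some genes known from PPARγ or IL4 biology were set to nearly the same level by both. Fabp4, the lipid chaperone aP2, had 496, 642, 769 and 762 FPKM with rosiglitazone and 609, 584, 659.7 and 652 with IL4, the groups overlapping. Its difference was -0.07 ± 0.09, with a 95% interval of -0.27 to 0.12 (limma adjusted p = 0.561), and -0.19 without mouse 1, whose rosiglitazone library was the lowest. Lpl, lipoprotein lipase, had 411, 477, 562 and 475 against 383, 402, 447 and 446 FPKM and did not pass (-0.19 ± 0.08, interval -0.35 to -0.03, limma adjusted p = 0.0539), but it passed without mouse 1 (-0.22, limma adjusted p = 0.0304). Cxcl16, a chemokine and scavenger receptor, fell with both, from 12.7 ± 0.908 FPKM in untreated and 12.1 ± 0.814 in DMSO-treated cells to 6.59 ± 0.880 with IL4 and 5.87 ± 0.609 with rosiglitazone. Its direct difference of 0.14 ± 0.07 did not pass (interval -0.00 to 0.28, limma adjusted p = 0.104); it passed without the rosiglitazone library of mouse 4 (0.19, limma adjusted p = 0.046). Pdk4 and Alox15, which PPAR ligands and IL4 are known to induce in other settings, were below the filter in these libraries.

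Gdf15, a stress-induced hormone that lowers appetite, was second only to Angptl4 on the rosiglitazone side among the genes that the naming rule takes. It had 37.4, 35.8, 22.5 and 29.2 FPKM with rosiglitazone and 8.29, 9.03, 6.57 and 6.41 with IL4, and all 4 IL4 libraries lay below all 4 rosiglitazone libraries (log2 difference -1.90 ± 0.13, limma adjusted p = 2e-08). In untreated cells it stood at 6.28 ± 1.45 and in DMSO-treated cells at 4.69 ± 2.29. Its RefSeq promoter is shown because it held the letters AGGNCA in tandem with 1 base between the copies, the repeat to which PPAR and RXR bind (either strand searched). Among genes 2-fold higher with rosiglitazone 1 of 51 promoters (1.96%) held it, against 0.556% of those 2-fold higher with IL4 (Ccl6) and 0.232% of all tested. The 250 bases upstream of the start lie at chr8:70632457-70632706 on the minus strand, and the match, in capitals, begins 55 bases before the start.
Gdf15: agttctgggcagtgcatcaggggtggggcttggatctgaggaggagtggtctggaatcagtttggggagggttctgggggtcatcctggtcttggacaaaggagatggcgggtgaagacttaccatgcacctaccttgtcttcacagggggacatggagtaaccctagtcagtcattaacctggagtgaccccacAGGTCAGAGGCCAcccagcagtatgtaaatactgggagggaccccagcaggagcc

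Several other genes at the rosiglitazone end stood lower with IL4 than in untreated cells. Cdkn1c, an inhibitor of the cell cycle, had 248, 287, 161 and 213 FPKM with rosiglitazone and 96.2, 100.4, 47.3 and 62.1 with IL4. It stood at 242 ± 70.3 in untreated cells, from which IL4 lowered it by -1.66 ± 0.07. Mamdc2 had 163 ± 20.0 against 58.6 ± 8.97 FPKM, and rosiglitazone left it at -0.06 ± 0.06 against DMSO. Fam129a, Lrrc14b, Syne2 (a nuclear envelope protein) and Cxcr1 (a chemokine receptor) were higher with rosiglitazone by -1.64 ± 0.10, -1.58 ± 0.08, -1.45 ± 0.11 and -1.37 ± 0.08. Gpcpd1, which breaks down glycerophosphocholine, rose with rosiglitazone (0.78 ± 0.06) and fell with IL4 (-0.56 ± 0.06). Axl, a receptor that recognises dying cells through bridging proteins, did the same, with 9.77, 8.75, 17.3 and 8.35 FPKM with rosiglitazone and 3.26, 2.92, 5.17 and 2.79 with IL4, mouse 3 the highest with either treatment. Its difference was -1.38 ± 0.07 with all mice and -1.32 without mouse 3.

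Among immune genes, antigen presentation on MHC class II was higher with IL4 throughout. All 9 tested genes of the list were called higher with IL4, 8 of them by 2-fold or more, with a median of 1.77. H2-Ab1, a class II chain, had 73.4, 74.1, 132 and 77.1 FPKM with IL4 and 14.1, 14.7, 36.5 and 18.4 with rosiglitazone, and mouse 3 was the highest with either treatment. The groups did not overlap, and the difference was 2.10 ± 0.08 (limma adjusted p = 5.74e-11), or 2.19 without mouse 3. Cd74, the invariant chain, had 220.3, 202, 432 and 250.1 against 57.7, 59.7, 143 and 68.7 FPKM, again highest in mouse 3. Ciita, the master coactivator of the class II genes, had 3.32, 3.57, 5.30 and 2.54 FPKM with IL4 and 0.184, 0.242, 0.714 and 0.247 with rosiglitazone (log2 difference 1.78 ± 0.08, limma adjusted p = 1.37e-10). H2-Eb1, another class II chain, was higher with IL4 by 1.95 ± 0.07. IL4 raised H2-Ab1 over untreated cells by 1.49 ± 0.08, and rosiglitazone lowered it against DMSO by -0.28 ± 0.08. Dendritic cell and B cell markers could bear on these genes. Summed dendritic markers were 20.5 to 23.3 FPKM with IL4 and 1.78 to 2.12 with rosiglitazone, almost all of it Batf3, and summed B cell markers were 18.5 to 22.8 and 18.0 to 19.3, almost all of it Cd22. The part of other cells in the class II difference was not tested.

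Chemokines and their receptors moved in both directions. The CC chemokines Ccl6 and Ccl9 had 272 ± 32.4 and 113 ± 24.3 FPKM with IL4 against 93.6 ± 20.4 and 31.3 ± 9.85 with rosiglitazone. Ccl2, which attracts monocytes through CCR2, had 14.3, 7.11, 3.42 and 8.86 against 4.48, 1.89, 0.434 and 2.77 FPKM, higher with IL4 in each mouse although the groups overlapped. Ccl3, an inflammatory chemokine, was higher with rosiglitazone (-0.58 ± 0.10), and both treatments lowered it. Of 12 tested chemokines 6 were higher with IL4 and 2 with rosiglitazone, with 66.7% called beside 40.3% of all genes. C5ar1, the receptor of complement fragment C5a, was higher with rosiglitazone, with 20.9, 26.3, 30.2 and 27.8 FPKM with rosiglitazone against 8.75, 10.1, 13.4 and 11.7 with IL4 (log2 difference -1.19 ± 0.05, limma adjusted p = 2.86e-10). Rosiglitazone raised it over DMSO by 1.42 ± 0.05. Ccrl2, a receptor that presents chemerin, was higher with rosiglitazone by -1.43 ± 0.06, with IL4 below untreated cells by -1.32 ± 0.06. Itgax (CD11c), a chain of complement receptor 4, was higher with IL4, at 304 ± 18.4 against 138 ± 9.81 FPKM.

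Pattern receptors and inflammatory genes were split. In the C-type lectin list 8 of 15 tested genes were higher with IL4, 7 by 2-fold or more, and 4 were higher with rosiglitazone. Clec4a3, an inhibitory lectin, was among the former (1.76 ± 0.07), and Clec4d, an activating receptor for mycobacterial glycolipid, among the latter, with 96.8, 115, 115 and 125 FPKM with rosiglitazone and 39.9, 37.5, 34.5 and 39.3 with IL4. Clec4d stood at 182 ± 19.1 in untreated cells, and both treatments lowered it. Toll-like receptors were even, 5 of 15 higher on either side (1 with IL4 and 2 with rosiglitazone as deposited), with 66.7% called beside 40.3% of all genes. Tlr1 and Tlr4 were higher with IL4 (0.88 ± 0.07 and 0.56 ± 0.06), and Tlr2 and Tlr13 with rosiglitazone (-0.75 ± 0.06 and -0.71 ± 0.07). Of 11 tested inflammatory cytokines and enzymes, 7 were higher with rosiglitazone and 1, Ccl2, with IL4, by a median of -0.30. The share called was 72.7%, beside 40.3% of all genes. These counts became 2 and none (0) with all 31 libraries, and 3 and 1 without mouse 3. A filter at 5 FPKM left 7 genes, 3 higher with rosiglitazone and 1 with IL4, with a median of 0.05. Tnf had 2.37 ± 0.676 FPKM with rosiglitazone and 1.38 ± 0.166 with IL4. Il1rn, the antagonist of the interleukin 1 receptor, had 25.4 ± 7.55 against 14.4 ± 5.34 FPKM, and both treatments lowered it. Of 18 tested interferon-stimulated genes (2 higher on either side as deposited), 6 were higher with IL4, among them Irf1, Gbp2 and Gbp3 (0.61 ± 0.05, 0.58 ± 0.06 and 0.61 ± 0.06), and 4 with rosiglitazone, among them Oas3 (-0.79 ± 0.10). This list had 55.6% of its genes called, beside 40.3% of all genes, and a median of 0.016.

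Among receptors and bridging proteins for antibodies and dying cells 12 of 23 tested genes were higher with rosiglitazone and 7 with IL4 (9 and 2 as deposited). The widest of the latter was Fcgr2b, the inhibitory Fc receptor, with 167, 167, 188 and 189 FPKM with IL4 and 42.3, 44.7, 48.9 and 51.5 with rosiglitazone. IL4 raised it (1.24 ± 0.06), rosiglitazone lowered it (-0.55 ± 0.06), and the difference was 1.90 ± 0.06 (limma adjusted p = 2.52e-12). Pros1, a bridging protein that binds dying cells, and C1qb, of complement C1q, were higher with IL4 by 0.61 ± 0.05 and 0.77 ± 0.08. Mertk and Itgav, receptors of dying cells, were higher with rosiglitazone by -0.42 ± 0.07 and -0.70 ± 0.10, beside Axl above. Of 14 costimulatory and coinhibitory ligands 4 were higher with IL4 and 5 with rosiglitazone (1 and 4 as deposited, 2 and 4 without the mouse block), and Pdcd1lg2 alone of them reached a 2-fold difference. Among these ligands 64.3% were called, beside 40.3% of all genes. Icam1, Cd276 and Havcr2 were higher with rosiglitazone by -0.55 ± 0.07, -0.37 ± 0.06 and -0.37 ± 0.07.

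Matrix-degrading enzymes and prostanoid genes gave some of the widest immune differences. Mmp12, macrophage elastase, had 1593, 1466, 1204 and 1801 FPKM with IL4 and 549, 574, 453 and 673 with rosiglitazone (log2 difference 1.43 ± 0.07, limma adjusted p = 2.69e-10). Mmp13 and Mmp8, collagenases, and Adam8, a membrane protease, were higher with IL4 by 2.17 ± 0.08, 1.60 ± 0.08 and 1.23 ± 0.05. Rosiglitazone lowered Mmp12, Mmp8 and Adam8 against DMSO, by -0.86 ± 0.07, -1.20 ± 0.08 and -0.86 ± 0.05. Of 12 tested metalloproteases and inhibitors 8 were higher with IL4 and 1 with rosiglitazone, and as deposited 5 and 0. In prostanoid synthesis Ptgs1, cyclooxygenase 1, had 21.7, 23.9, 22.5 and 25.7 FPKM with IL4 and 2.72, 2.07, 1.40 and 3.01 with rosiglitazone (log2 difference 2.91 ± 0.12, limma adjusted p = 8.28e-11). The prostacyclin receptor Ptgir and the prostaglandin E2 receptor Ptger2 were higher with IL4, by 2.11 ± 0.08 and 1.11 ± 0.06. Another prostaglandin E2 receptor, Ptger4, was higher with rosiglitazone (-1.15 ± 0.07), as was Hpgds, the prostaglandin D2 synthase, with 54.4, 63.1, 78.1 and 60.5 against 24.8, 23.5, 29.3 and 24.2 FPKM. Of 16 tested genes of the list 10 were higher with IL4 and 4 with rosiglitazone, and as deposited 4 and 4.

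**Figure D4:**
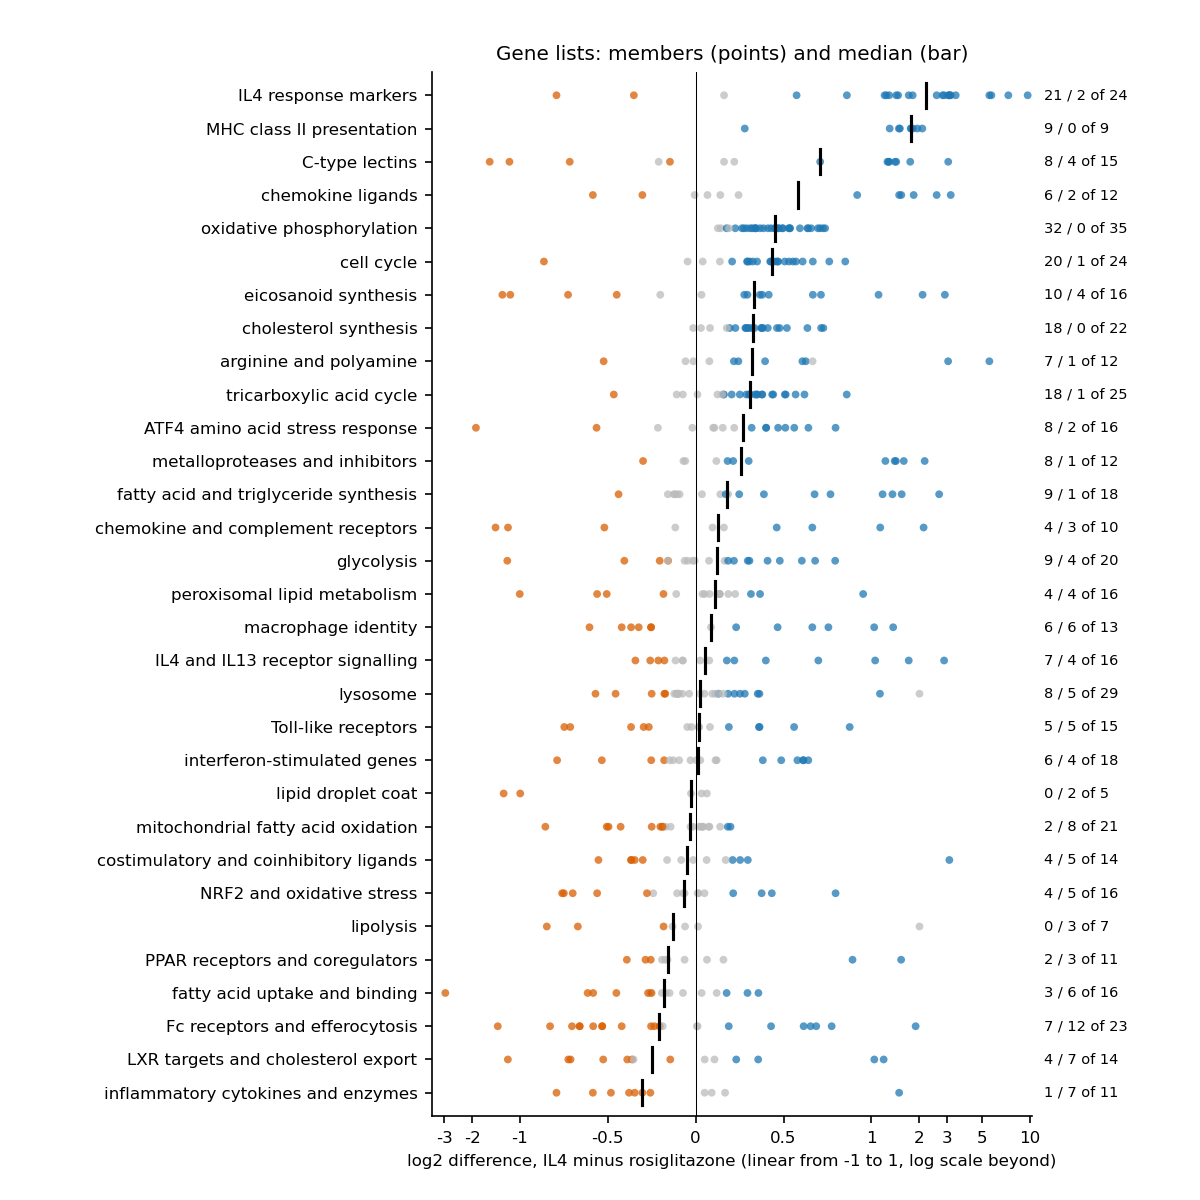
Each row is a gene list; points are the tested members' log2 differences, IL4 minus rosiglitazone (x axis, linear from -1 to 1 and on a log scale beyond), blue or orange where the adjusted p was under 0.05 and grey otherwise, and the black bar is the median. Numbers at the right count members higher with IL4 / higher with rosiglitazone of those tested, from 21 / 2 of 24 for IL4 response markers to 1 / 7 of 11 for inflammatory cytokines and enzymes. Over all genes tested, 21.2% were higher with IL4 and 19.1% with rosiglitazone.

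Most genes of mitochondrial respiration and of the cell cycle were slightly higher with IL4. Of 35 tested genes of oxidative phosphorylation, subunits and cytochrome c, 32 were higher with IL4 and none (0) with rosiglitazone. Their median was 0.45, without a 2-fold difference. Cyc1, of complex III, had 42.1, 38.3, 41.1 and 41.1 FPKM with IL4 and 24.3, 24.7, 21.6 and 27.8 with rosiglitazone, and Atp5b, Atp5a1 and Cox5a differed by 0.64 ± 0.06, 0.50 ± 0.05 and 0.64 ± 0.07. With the vehicle taken out 18 of the 35 were called, and in the values as deposited 1 was. Of 25 tested genes of the tricarboxylic acid cycle and pyruvate entry 18 were higher with IL4 and 1 with rosiglitazone. Idh3a, isocitrate dehydrogenase, led with 0.86 ± 0.07, and Mdh2 and Pdhb were among the others (0.62 ± 0.06 and 0.51 ± 0.06). As deposited, 1 of these 25 was called higher with IL4. Of 24 cell cycle genes 20 were higher with IL4, among them Ccna2, Rrm2 and Mcm5 (0.76 ± 0.08, 0.61 ± 0.08 and 0.57 ± 0.07), all at low levels, with Ccna2 at 1.37 to 2.53 FPKM with IL4 and 0.483 to 0.936 with rosiglitazone; as deposited, 11 of the 24 were called higher with IL4. Ccnd3, a cyclin of G1, was the 1 higher with rosiglitazone (-0.86 ± 0.07).

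Of 20 tested glycolysis genes 9 were higher with IL4, such as Pfkp, Pgk1 and Ldha (0.68 ± 0.05, 0.60 ± 0.07 and 0.41 ± 0.07, the last not called with the vehicle taken out), and 4 with rosiglitazone, which became 3 and 3 with the vehicle taken out and 1 and 2 as deposited. Those higher with rosiglitazone were led by Aldoc with 9.78 ± 0.828 against 3.69 ± 0.370 FPKM. In the glycolysis list 65% were called, beside 40.3% of all genes. Antioxidant genes included Gsr, Sod1 and Gstm1, higher with rosiglitazone by -0.75 ± 0.05, -0.76 ± 0.09 and -0.70 ± 0.06, in a list with 5 of 16 higher with rosiglitazone and 4 with IL4 (8 and 4 with upper-quartile scaling). Its share called was 56.25%, beside the same 40.3%. In the ATF4 list, which holds Gdf15 as a member, 8 of 16 tested genes were higher with IL4, among them Slc7a11, the cystine transporter, and Atf3 (0.80 ± 0.09 and 0.51 ± 0.06), and 2 with rosiglitazone, the other being Sesn2 (-0.56 ± 0.08); as deposited the counts were 3 and 2, and without the mouse block 5 and 2. Of 29 lysosomal genes 8 were higher with IL4 and 5 with rosiglitazone, a balance that turned to 2 and 8 with the vehicle taken out and to 5 and 12 with upper-quartile scaling. The share called was near that of all genes. Ctsl, cathepsin L, had 2681, 2439, 1911 and 3150.3 FPKM with IL4 and 1129, 1155, 853 and 1528 with rosiglitazone, and Ctsd, cathepsin D, differed the other way by -0.46 ± 0.06. Macrophage identity genes were split 6 to 6 among 13, and as deposited 3 with IL4 and 2 with rosiglitazone. Csf1r, the receptor for M-CSF, and the transcription factor Cebpa were higher with IL4 (1.04 ± 0.08 and 0.76 ± 0.07), as was Itgam (0.66 ± 0.08). Mertk, also of this list, was higher with rosiglitazone, as given above. With the vehicle taken out 5 of the list were higher with IL4 and 6 with rosiglitazone, and the median was -0.17.

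Summed markers of mesothelial cells and fibroblasts ranged from 36.5 to 91.5 FPKM with rosiglitazone and from 38.5 to 96.6 with IL4. With the vehicle taken out the median of its 9 tested genes was 0.63, with 4 higher with IL4 and 1 with rosiglitazone. In the direct comparison Krt18, Krt8 and Lrrn4 were called higher with IL4 at levels of 1.24 ± 0.364, 1.09 ± 0.404 and 1.83 ± 1.23 FPKM. Summed neutrophil markers were 28.3 to 39.7 with rosiglitazone and 22.6 to 32.9 with IL4, mostly S100a8 and Csf3r, with S100a8 lower with IL4 (-0.46 ± 0.12), a call lost without mouse 3 or 4 (-0.34 and -0.33). Of the resident macrophage markers, Cd9 and Vsig4 were higher with IL4 (0.28 ± 0.07 and 0.21 ± 0.06), though neither with the vehicle taken out (0.06 and 0.03), and Vsig4 not without mouse 1, 2 or 3 (0.17, 0.21 and 0.23). Fabp7 was lower with IL4, as given above. Siglecf, a marker of eosinophils, was higher with IL4 by 0.25 ± 0.07. That call was lost without mouse 1, 3 or 4 (0.23, 0.21 and 0.23), and its sign turned with the vehicle taken out (-0.19). 

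The same contrast in the libraries labelled KO asks which of these differences depend on the receptor. Pparg transcript was not lower in them: it had 40.5, 39.3 and 48.3 FPKM with rosiglitazone and 127, 116, 102 and 130.2 with IL4. A value over the whole gene does not measure a deleted part, so it checks nothing here. In KO cells 1717 of 9722 genes (17.7%) were called between IL4 and rosiglitazone, in a fit of all 31 libraries without a block. The control contrast gave 2319 calls in that same fit, with 4 rosiglitazone libraries where KO cells had 3. The 3916 calls above came from the fit with a block and are not the count to compare. The difference between the genotypes was called for 64 genes (0.658%), and for 3 of the 23 tested genes of a fixed set of PPARγ and IL4 genes. Angptl4 was the widest of the 3. It had 2.24, 0.503 and 0.707 FPKM with rosiglitazone and 0.407, 0.688, 0.294 and 0.295 with IL4 in KO cells, a log2 difference of -0.52 ± 0.16, and control minus KO was -2.45 ± 0.22 (limma adjusted p = 4.34e-08). Abcg1 turned round, with 31.6, 26.7 and 21.7 FPKM against 45.2, 35.7, 47.3 and 38.8 with IL4, so that IL4 was the higher in KO cells (0.63 ± 0.12) and control minus KO was -1.03 ± 0.16 (limma adjusted p = 0.000563). Hadhb stood at 9.19, 7.20 and 7.89 against 9.14, 10.3, 9.26 and 10.5 FPKM, with control minus KO at -0.51 ± 0.12 (limma adjusted p = 0.0448), a call lost on leaving out any 1 of 12 of the 15 libraries (-0.54 to -0.44). As deposited, Angptl4 alone of the 3 passed. Cd36 was listed at 0 in 1 KO library with IL4 and at 723 to 790 FPKM in the other 3. Its control minus KO was 1.34 ± 1.68 with that library (limma adjusted p = 1) and -1.05 without it (limma adjusted p = 0.000876). The gap of the IL4 markers remained large in KO cells: Retnla differed by 5.91 ± 0.62, Arg1 by 5.85 ± 0.30 and Mrc1 by 1.21 ± 0.14, and their genotype differences did not pass (limma adjusted p = 1, 1 and 1). Chil3 had 3666, 3114, 3662 and 2899 FPKM with IL4 in KO libraries, all below the 5363 to 7739 of control libraries. With rosiglitazone it had 4.20, 5.31 and 13 in KO libraries. Its control minus KO, 0.537 to 1.25 with 1 library left out, was not called. Plin2, Cpt1a and Gdf15 differed in KO cells by -0.60 ± 0.11, -0.62 ± 0.13 and -0.81 ± 0.25, and their genotype differences did not pass either (limma adjusted p = 0.445, 1 and 0.245).

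**Figure D5:**
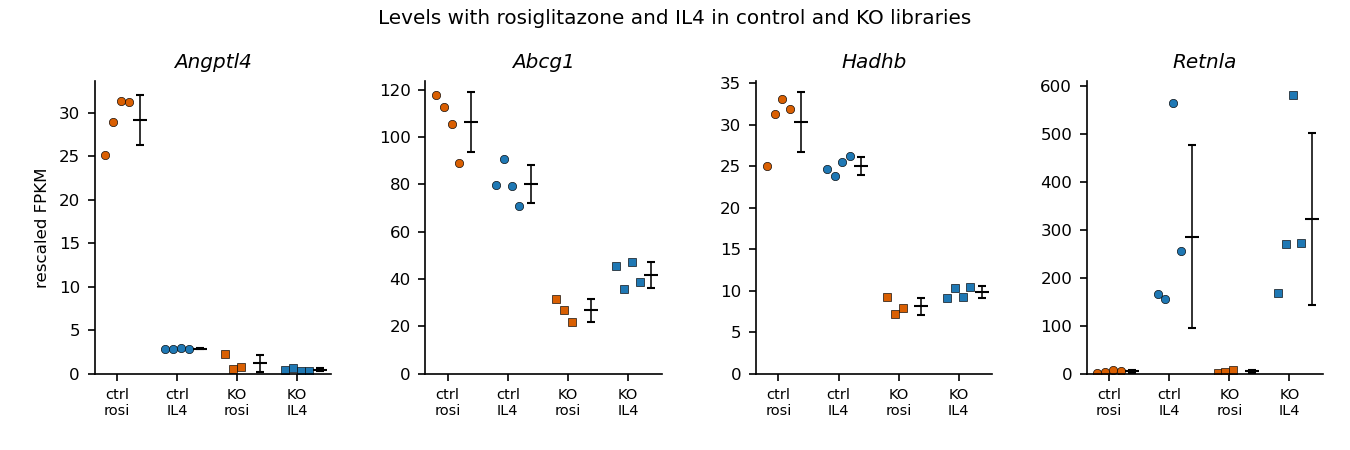
Rescaled FPKM (y axis, from 0) of 4 genes with rosiglitazone (orange) and IL4 (blue) in control (circles) and KO libraries (squares), with mean ± SD of 4 libraries, 3 for KO with rosiglitazone. Angptl4 is above 25 FPKM only in the control libraries with rosiglitazone, Abcg1 is higher with rosiglitazone in control and with IL4 in KO libraries, and Retnla is high with IL4 in both genotypes.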

How the data were processed

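FPKM values per gene were deposited by the authors; the submitters' processing notes name TopHat2, featureCounts, edgeR and the mouse build mm9, without versions or roles. The table lists 24302 symbols, of which 25 are dates, holding 0.136% of the FPKM, and were left out. Each library was divided by its median ratio to the gene-wise geometric mean of the 16 control libraries (9455 genes above 0 in all and with a geometric mean of at least 1 FPKM). Genes with at least 1 rescaled FPKM in at least 3 of the 8 libraries compared were tested, 9725 in all. A linear model of log2(rescaled FPKM + 1), with 1 mean per treatment and the replicate number as a block, was fitted to the 16 control libraries with limma 3.58.1 in R 4.3.3 (trend in the prior variance, Benjamini-Hochberg adjustment over all genes tested, two-sided, called at an adjusted p under 0.05). The pseudocount of 1 shrinks fold changes of low genes. The KO contrast came from all 31 libraries without a block; its alternatives were chosen after seeing the data. The method was tested on simulated data.

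Replicate numbers were taken as mice: by the series' design each treatment used the same 4 control mice, residuals of the IL4 and rosiglitazone libraries of a number correlated at 0.273 to 0.628, and Ddx3y and Xist separated number 1 from the others in every treatment. Of the 16 libraries 13 correlated best with their own number. The untreated, DMSO and IL4 libraries numbered 2 did not, with mean correlations of -0.112, 0.195 and 0.0537 with their own number. Another number gave 0.233, 0.272 and 0.124.

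For genes below 0.1 FPKM, 58.0% to 67.0% of ratios between libraries were, within 0.1%, the step of the library pair multiplied by a quotient of integers no larger than 5, against at most 0.877% with the step shifted; this gave the relative depths. Read counts were not recovered and no count test was run.

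The genes described and the lists, written from general knowledge, were chosen with earlier results of these data known. Named were up to 14 genes per direction with the largest difference among those called, of 1 sign in the 4 mice and without overlap (predicted models skipped), from each list at most 4 members, those of smallest p, and a fixed set. Adipoq, Stat6, Mertk, Itgav, Acadm, Hadh, Tgm2 and Ptger4 were added after their values were seen. Genes at 0 in single libraries but high in others, such as Lipa (0 in 5 of 16), were not described. No source used here gives the strand setting of the authors' counting. Some genes that the naming rule takes are not reported here.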

Additional observations from a re-analysis of the deposited data

Results flagged for a closer look

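In each group of 4 libraries a value was taken as set apart when its gap to the nearest other library, as a share of the group's range, exceeded Dixon's 95% critical value. Among 316 groups, IL4 and rosiglitazone for each of 158 genes named here, 29 held such a value; chance alone flags about 1 in 20 groups. Most came from mouse 3. Its rosiglitazone library was the highest for Cd74 at 143 (others 57.7 to 68.7) FPKM, H2-Eb1 at 23.5 (others 8.67 to 9.07), Ciita at 0.714 (others 0.184 to 0.247), Axl at 17.3 (others 8.35 to 9.77), Itgav at 35.3, Mylip at 9.83, S100a8 at 29.2 and Ocstamp at 0.0447. It was the lowest for Awat1 at 1.38, Gstm1 at 107 and Slc7a2 at 1.45. The IL4 library of the same mouse was the highest for H2-Ab1 at 132 (others 73.4 to 77.1), H2-Eb1 at 76.8 (others 37.8 to 40.8), Irf1 at 16.9, Cpt1a at 22.5, Nr1h3 at 40.9 and Angptl4 at 2.96, and the lowest for Awat1 at 14.2. Without mouse 3 the log2 differences of H2-Eb1, Cd74 and Ciita were 2.04, 1.83 and 1.75, beside 1.95, 1.77 and 1.78 with all mice.

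Mouse 1 stood highest with IL4 for Cd276 at 1.74, Gsr at 27.9 and Lrrc14b at 1.87 and lowest for Tmem26 at 61.0, and with rosiglitazone highest for Mcm5 at 2.01 and Socs1 at 0.678. Mouse 2 was highest for Syne2 with IL4 at 1.86 and lowest for Vsig4 with rosiglitazone at 2.10. Mouse 4 was highest for Nsdhl with IL4 at 10.7 and for Cox5a with rosiglitazone at 86.6, and lowest for Pnpla6 with IL4 at 2.51.

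The difference between IL4 and rosiglitazone itself differed between control and KO libraries for 3 genes of the fixed set (limma, Benjamini-Hochberg adjustment): control minus KO was -2.45 for Angptl4, -1.03 for Abcg1 and -0.51 for Hadhb.

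Angptl4 and Abcg1 were called with any 1 library left out.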

How the results depend on the processing

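The 3916 calls (2057 higher with IL4, 1859 higher with rosiglitazone; 231 by 2-fold or more, 183 and 48) were recomputed under each alternative. Without the replicate block 2931 genes were called (1546 and 1385), and with the 8 libraries compared alone and the block 4329; the blocked count is the one reported. All 31 libraries without a block gave 2319 (1242 and 1077), and a filter at 5 FPKM gave 1186 higher with rosiglitazone. With the vehicle taken out 2280 were called (1147 and 1133). As deposited, with a median log2 difference of all genes of -0.133, 1356 were called, 452 higher with IL4 (33.3% of calls, beside 52.5%) and 904 with rosiglitazone, 78 of them by 2-fold or more. Upper-quartile scaling gave 4136 calls, 40% of them higher with IL4 (1656 against 2480). A pseudocount of 0.1 gave 374 with a 2-fold difference, 101 of them higher with rosiglitazone. Leaving out 1 mouse or 1 library gave 2838 to 3937 calls, 1521 to 2096 higher with IL4, 1317 to 1905 with rosiglitazone, and 224 to 252 by 2-fold or more (180 to 200 and 43 to 52). In KO cells, leaving out 1 library gave 1208 to 1953 calls and 43 to 60 genotype differences, beside 1717 and 64; values as deposited gave 418 and 14. A replicate block within genotype gave 121 genotype differences and called Gdf15 (-1.16), but the numbers of the KO libraries do not pair them: Ddx3y stood at 18.4 to 20.7 FPKM in number 2 of the untreated, DMSO and IL4 libraries but in number 1 with rosiglitazone (18.7). The genotype difference of Cd36 ranged from -1.05, without the KO library with IL4 in which it was at 0, to 2.16. The cause was not tested for the other shifts.

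Of the 158 genes named, 8 lost the call without the replicate block (Acadm, Ccl2, Cd276, Lrrn4, Nr1h3, Pnpla6, Siglecf and Vsig4), 12 with the vehicle taken out and 32 as deposited, with differences up to 0.71 on the log2 scale (Abcg1, Acadm, Acat2, Atf3, Atp5a1, Atp5b, Cd274, Cd9, Cox5a, Cyc1, Dgat1, Gbp2, Hadh, Hadhb, Irf1, Itgam, Ldha, Mdh2, Msr1, Nr1h3, Nsdhl, Pdhb, Pfkp, Pgk1, Pnpla6, Pros1, Sat1, Siglecf, Stat6, Tgm2, Tlr4 and Vsig4). With all 31 libraries 19 lost it, among them Cd36, which is at 0 in 1 KO library. Sign turned in 2 of those lost with the vehicle taken out: Pnpla6 (0.0654) and Siglecf (-0.19). No interval for counting error could be given without read totals.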
